A study of Caenorhabditis elegans with 2 samples.

Results

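The heterochronic genes of Caenorhabditis elegans set when each larval fate is carried out, and 8 of them are described here by the regions of the T-box factor TBX-8 mapped on and around them in embryos. The genes are lin-14, lin-28, lin-29, lin-41, lin-42, lin-46, lin-66 and hbl-1, 8 of the 19973 protein-coding genes on the nuclear chromosomes. Their regions were chosen by position: a region belonged to a gene when its summit, the position of highest signal, lay inside the gene body or within 3 kb of one of its annotated transcript starts. The genes themselves were chosen from the pathway with their region signals in this experiment known, so those signals are a description and carry no test.

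The measurement was chromatin immunoprecipitation followed by sequencing (ChIP-seq), which enriches the DNA fragments a protein is crosslinked to. It was made in 2 biological replicates of strain RW10470, both of 1 group, so there is no second condition to compare. Every worm of that strain carries tbx-8::TY1::EGFP::3xFLAG with unc-119(+) in an unc-119(ed3) background, and the fusion was pulled down through its GFP. Whole embryos were collected by egg bleaching and were of mixed sex and mixed stage, aged 2.5 h, so the cells in which the protein lay at a gene are unknown. Their DNA was sonicated to 200-800 bp. Replicate 1 gave a list of 24167 regions, replicate 2 one of 20865 and the pooled reads one of 16355, and these 3 lists hold background regions by design. A thresholded list of 521 pooled regions was derived by the irreproducible discovery rate step, which weighs rank agreement. Its regions are called peaks below. The peaks of lin-28, lin-66 and lin-42 had the same rank in it as in the pooled list. Whether a single peak was found in both replicates is therefore read from the replicate lists. Read numbers are not given in these lists, so the depth of each library is unknown.

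The heterochronic pathway is a relay of regulators that act one after another in the larva, each stage ending when a microRNA or an RNA-binding protein lowers the factor that defined it. lin-4 lowers lin-14 and lin-28, the let-7 family lowers hbl-1 and lin-41, and the end of the relay releases LIN-29, the zinc-finger factor that starts the larval-to-adult switch in the epidermis. The pathway is best known from the lateral epidermal (seam) cells of larvae, and the embryos assayed here come before those stages.

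The DNA under the summits shows what some of the regions at these genes look like. The highest regions of lin-28, lin-29, lin-41 and lin-46 are not shown. Each of the 6 windows given is a summit with 100 bp on either side, from the WBcel235 (ce11) sequence of RefSeq, on the plus strand. They are the windows at lin-66 (chrIV:13887557-13887757) and lin-42 (chrII:1238016-1238216), which were peaks, the second region of lin-42 (chrII:1246949-1247149), the pair of neighbouring regions of lin-14 (chrX:11474071-11474271 and chrX:11474371-11474571) and the AT-rich highest region of hbl-1 (chrX:5822656-5822856). Capitals mark the words searched on both strands: GGTGTG, which is the core of known T-box sites. Next came GAGAGA, which is a short purine repeat often seen at worm promoters. Further words were GGGCGG, which factors of the SP1 family are known to bind, then TGATAA, which is known as a site of the zinc-finger factors of the intestine and epidermis, and the word GACGCAGA, which was added once these letters had been seen.
lin-66, peak upstream of the gene: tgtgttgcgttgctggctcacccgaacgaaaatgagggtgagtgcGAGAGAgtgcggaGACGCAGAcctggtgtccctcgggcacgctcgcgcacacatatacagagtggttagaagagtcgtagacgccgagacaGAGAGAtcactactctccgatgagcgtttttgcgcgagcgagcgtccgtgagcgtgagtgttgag
lin-42, peak in an intron: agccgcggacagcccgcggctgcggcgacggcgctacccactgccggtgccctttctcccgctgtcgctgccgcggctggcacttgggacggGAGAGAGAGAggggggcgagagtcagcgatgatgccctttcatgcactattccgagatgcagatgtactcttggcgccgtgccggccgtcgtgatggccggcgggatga
lin-42, second region: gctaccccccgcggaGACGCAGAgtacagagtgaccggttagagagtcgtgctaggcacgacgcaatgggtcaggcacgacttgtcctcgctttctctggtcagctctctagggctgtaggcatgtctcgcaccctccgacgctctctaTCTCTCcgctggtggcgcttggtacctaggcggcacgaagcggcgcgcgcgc
lin-14, first region of the pair: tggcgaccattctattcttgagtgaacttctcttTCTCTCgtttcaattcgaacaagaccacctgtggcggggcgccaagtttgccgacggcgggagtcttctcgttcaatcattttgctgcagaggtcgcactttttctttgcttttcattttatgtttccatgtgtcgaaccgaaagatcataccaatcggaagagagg
lin-14, second region of the pair: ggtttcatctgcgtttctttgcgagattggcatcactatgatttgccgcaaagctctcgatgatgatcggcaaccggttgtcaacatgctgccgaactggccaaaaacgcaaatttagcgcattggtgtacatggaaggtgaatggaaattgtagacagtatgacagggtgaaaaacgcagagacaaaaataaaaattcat
hbl-1, highest region: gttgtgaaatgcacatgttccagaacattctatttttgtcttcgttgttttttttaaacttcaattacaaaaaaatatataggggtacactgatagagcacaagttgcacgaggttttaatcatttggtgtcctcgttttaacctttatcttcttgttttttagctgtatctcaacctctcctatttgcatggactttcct
The lin-42 peak window was 68.2% G and C and the lin-66 window 57.7%, against 33.8% for hbl-1 and a median of 39.3% over all pooled regions. The second region of lin-42, which was not a peak, was at 63.7%, and the lin-28 peak, not shown, at 47.8%. The lin-66 window held 2 separate GAGAGA words on the strand shown, and the lin-42 peak held 1 run in which 3 of them overlap.

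All 8 genes had at least 1 pooled region, 41 regions in all, and 3 of the 8, lin-28, lin-42 and lin-66, had a peak. Among all protein-coding genes counted by the same rule, 4.18% had a peak and 59.3% had a pooled region. The same 3 genes had a pooled region at a q-value (the authors' adjusted p-value of a region) below 0.05, against 6.58% of all protein-coding genes. Long genes offer more room: a peak was found at 3.75% of genes with a window up to 8 kb and at 8.18% of those over 15 kb, and lin-14, lin-29 and lin-42, with windows of 23312, 20702 and 23735 bp, belong to the latter. Since the genes were picked with these lists in view, the 3 of 8 is a count and not a test of the pathway.

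**Figure D1:**
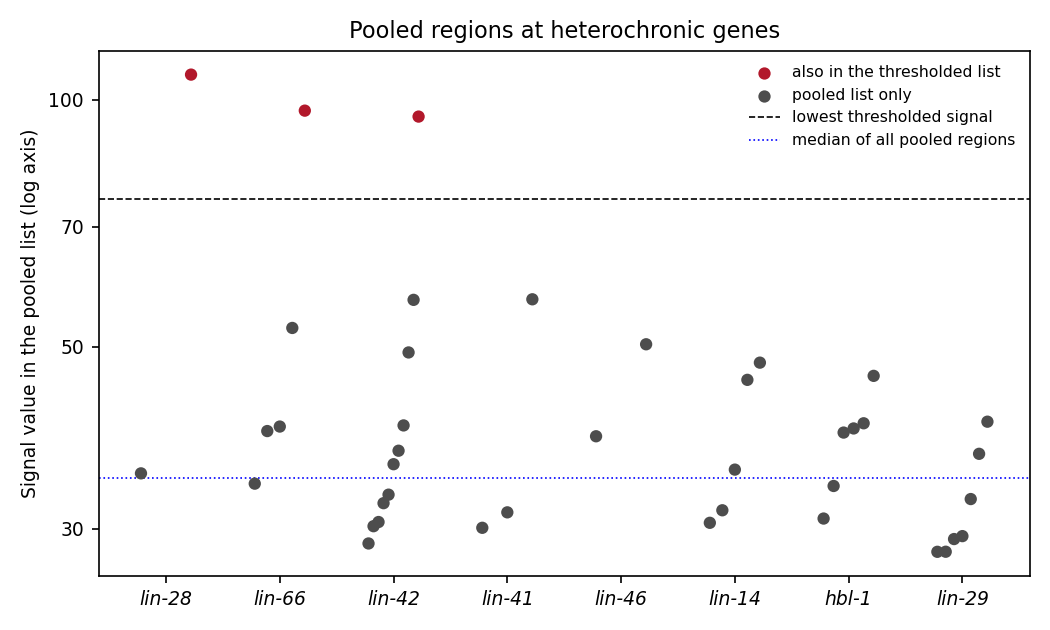
Signal value in the pooled list (log axis) of each of the 41 regions, by gene. Red points are peaks, the dashed line is the lowest signal of any peak (75.8) and the dotted line is the median of all pooled regions (34.6). The 3 red points, at lin-28, lin-66 and lin-42, lie between 95.4 and 107, and the next highest point of any of the genes is at 57.1.

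The highest pooled signal was 107 at lin-28, 97.0 at lin-66 and 95.4 at lin-42. It was 57.1 at lin-41, 50.4 at lin-46, 47.8 at lin-14, 46.1 at hbl-1 and 40.5 at lin-29, and no peak in the whole thresholded list had a signal below 75.8. With windows of 5 kb around starts the value of hbl-1 became 69.9. The signal is the peak caller's measure of a region and is compared only within a list. Of the 11847 protein-coding genes with a pooled region, 96.9% had a lower highest signal than lin-28, 95.9% than lin-66, 95.8% than lin-42 and 58.3% than lin-29. Neighbours in this order are close, as lin-66 and lin-42 stood at pooled ranks 290 and 300, and the replicates did not order the 3 genes with a peak alike.

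lin-28 encodes an RNA-binding protein that blocks maturation of let-7 and keeps early larval fates in place, and it carried the strongest region of the 8 genes. The region (chrI:8409736-8410195, ce11) had a pooled signal of 107 and rank 218 with a q-value of 0.00448, the same q-value as the lin-66 and lin-42 peaks. In the list of replicate 1 its signal was 64.1 at rank 188, and in that of replicate 2 it was 42.0 at rank 386, so it was among the 521 highest regions of both. The summit lay in an intron of the longer transcript, 838 bp downstream of that transcript's start and 46 bp upstream of the start of the shorter transcript, F02E9.2b.1. The window at the summit was 47.8% G and C. The other region of lin-28, 465 bp upstream of the first start, had a signal of 35.0, close to the pooled median of 34.6, and matched a region of replicate 2 (rank 4860) but none of replicate 1. The lin-28 peak also lay within 3 kb of a start of the neighbouring gene F02E9.7, the one other protein-coding gene that counted any of the 3 peaks.

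The genes most like lin-28 over the 3 ranks (pooled, replicate 1, replicate 2) were sought among 4821 protein-coding genes with a match in all 3 lists. The nearest were F23A7.4 and R11.4, which share 1 region with a pooled signal of 107 and ranks 230, 191 and 400. Next and equally near each other came K10D2.5, cid-1, emb-1, prp-19 and ulp-1, which share 1 region of ranks 220, 216 and 398. None of these is on the list of heterochronic genes.

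lin-66 encodes a protein that lowers lin-28 after transcription and so acts in the passage from the second to the third larval stage, and its peak lay in front of the gene. The peak (chrIV:13887427-13887886) had a pooled signal of 97.0 and rank 290, and its sequence is the first of those given above. Replicate 1 gave it a signal of 47.1 at rank 417 and replicate 2 one of 48.7 at rank 257. The summit was outside the gene, 422 bp upstream of the most upstream start, and the nearest start of another protein-coding gene, thoc-7, was 3687 bp away. The other 4 pooled regions of lin-66 had signals from 34.0 to 52.7. The one at 52.7 (rank 1592) lay in a coding exon, was found in replicate 2 at rank 6471, and had no summit of replicate 1 within 100 bp.

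lin-42, the worm relative of the clock gene period, acts in the timing of molts and lowers the transcription of several heterochronic microRNA genes. It had the most regions, 11 in the pooled list, spread over a gene of 19124 bp with 5 annotated starts. Its peak (chrII:1237886-1238345) had a pooled signal of 95.4 and rank 300, with a signal of 45.7 at rank 451 in replicate 1 and 43.2 at rank 357 in replicate 2. The summit was not near the first start but 14243 bp downstream of it, in an intron and 1147 bp upstream of the start of F47F6.1a.1. The third region of lin-42 by signal, at 49.2, was nearer to that start, 223 bp upstream, and both replicates held it at ranks 4078 and 2115.

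The second region of lin-42 (chrII:1246819-1247278) showed the replicates apart. Its pooled signal was 57.0 at rank 1217 with a q-value of 0.124, but it stood at rank 870 with a q-value of 0.0385 in replicate 1 and at rank 5347 with one of 0.602 in replicate 2. Its summit lay inside the noncoding RNA gene F47F6.15 as well as in an intron of lin-42. The remaining 8 regions of lin-42 had signals from 28.8 to 40.1. Of all 11, replicate 1 matched 10 and replicate 2 matched 5.

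**Figure D2:**
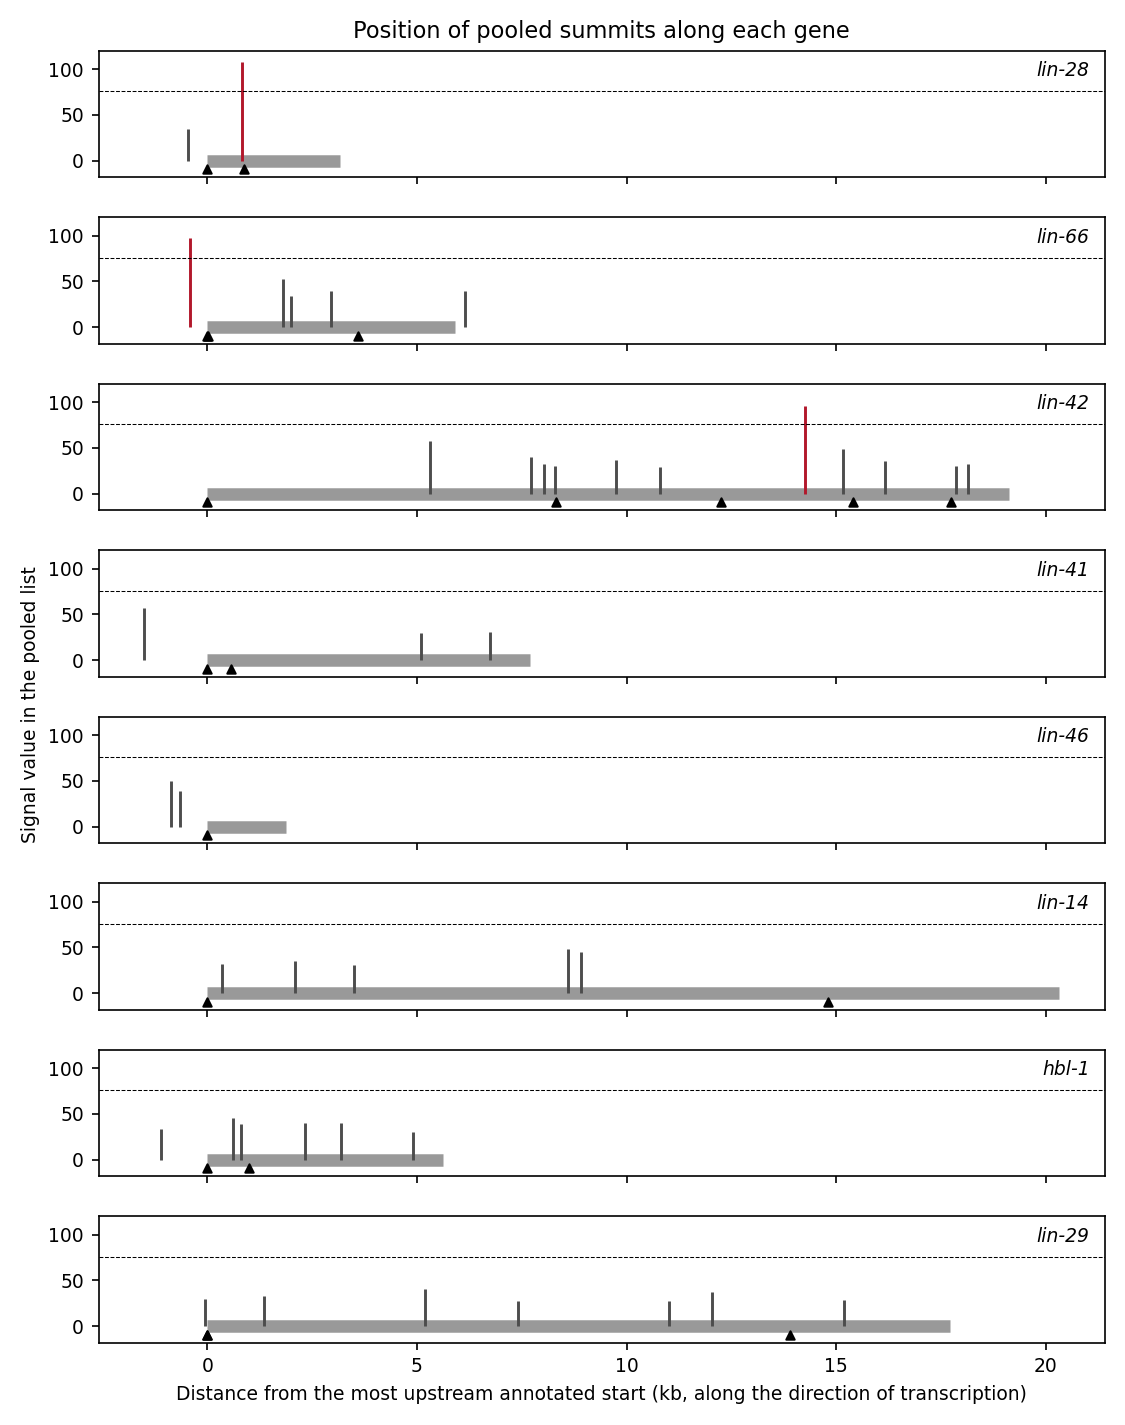
Position of the 41 pooled summits along each gene, in kb from the most upstream annotated start in the direction of transcription. Bars are gene bodies, triangles are annotated starts, line heights are pooled signals (red for peaks) and the dashed line is the lowest signal of any peak (75.8). The lin-66 peak stands 422 bp before the gene, the lin-28 peak 46 bp before a second start, and the lin-42 peak deep in the gene.

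lin-14 encodes a nuclear factor that sets the fates of the first larval stage, and it had no peak. Its highest regions were a pair of overlapping ones in an intron, with summits 6190 and 5890 bp upstream of the start of T25C12.1b.1, and by summits within 100 bp each was matched in a different replicate. By overlap both were found in both replicates, with the region of rank 1192 in replicate 1 and that of rank 1562 in replicate 2. The first had a pooled signal of 47.8 (rank 2347) and a summit of replicate 2 within 100 bp, at a signal of 28.1 and rank 1562, but none of replicate 1. The second had a pooled signal of 45.6 (rank 2857) and a summit of replicate 1 within 100 bp, at a signal of 34.5 and rank 1192, but none of replicate 2. The other 3 regions of lin-14 had signals from 30.5 to 35.4, and each matched 1 replicate. No region of lin-14 was matched within 100 bp in both replicates.

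hbl-1, the worm relative of the fly gap gene hunchback, sets the fates of the second larval stage, and it had 6 regions in a window of 8614 bp but no peak. The highest, at 46.1 (rank 2712), lay in an intron 376 bp upstream of the start of F13D11.2b.1. It matched replicate 1 at a signal of 26.2 and rank 3670, and overlapped a region of replicate 2 at rank 2836 whose summit was 142 bp away. Replicate 2 put another region of hbl-1 first, 1115 bp upstream of the first start, at a signal of 33.0, rank 854 and a q-value of 0.0603. The same region had a pooled signal of 33.8 (rank 8810) and no summit of replicate 1 within 100 bp. A stronger region (chrX:5818240-5818699) lay beyond the limit of the rule, 3672 bp upstream of the first start, with a pooled signal of 69.9 at rank 663, a q-value of 0.0158, and ranks of 612 and 2328 in replicates 1 and 2. Its summit was inside the noncoding RNA gene F13D11.21, and it stayed below the lowest peak.

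lin-46 encodes a gephyrin-related protein that acts downstream of lin-28 and limits HBL-1. Its 2 regions were overlapping and both outside the gene, with summits 860 and 646 bp upstream of the start. The higher had a pooled signal of 50.4 at rank 1908, a signal of 23.8 at rank 5333 in replicate 1 and one of 18.1 at rank 9052 in replicate 2. Its summit was 13 bp from a start of the neighbouring gene R186.8, so it was much closer to that gene than to lin-46. The lower had a pooled signal of 38.9.

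lin-41 encodes a TRIM-NHL RNA-binding protein that holds back LIN-29 until let-7 lowers it, and its replicates stood far apart. Its highest region (chrI:9343766-9344225), 1500 bp upstream of the first start, had a pooled signal of 57.1 at rank 1204 with a q-value of 0.122. In replicate 1 it stood at a signal of 44.2 and rank 506 with a q-value of 0.0089. Replicate 2 had 0 regions in the whole lin-41 window of 10697 bp. Over all pooled regions, 502 were matched to 1 of the 521 highest regions of replicate 1, and 14 of them overlapped no region of replicate 2. The lin-41 region is 1 of those 14. None of the 14 is a peak, and among the 103 of the 502 that are not peaks the share is 13.6%. The other 2 regions of lin-41, with signals of 31.4 and 30.1, lay in the 3′ UTR and a coding exon.

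lin-29, the zinc-finger factor at the end of the relay, had the lowest highest signal of the 8 genes. Its 7 pooled regions ranged from 28.1 to 40.5, and none stood in the strongest 25% of the list, the highest being at rank 4547. That region, in an intron, had a signal of 17.1 at rank 15575 in replicate 1 and 21.5 at rank 4717 in replicate 2. Each replicate by itself put a different region of lin-29 first. Replicate 1 did so for an intronic region at rank 3572, and replicate 2 for a region at rank 2227 that lay 63 bp upstream of the first start in the pooled list.

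**Figure D3:**
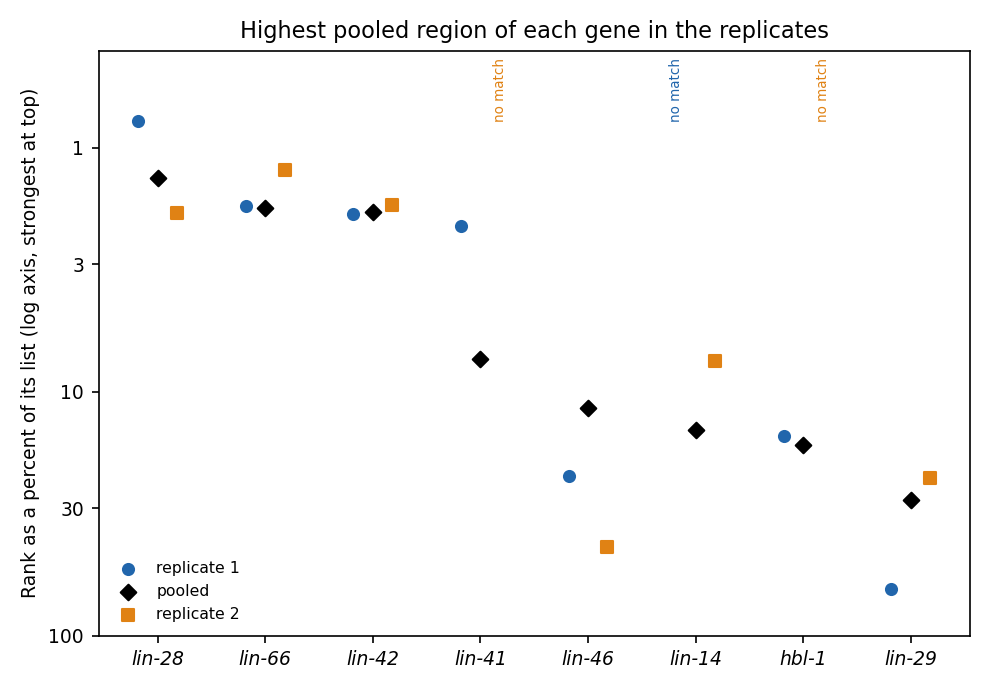
Rank of the highest pooled region of each gene as a percent of its list (log axis, strongest at the top) in replicate 1, the pooled list and replicate 2. Points of lin-28, lin-66 and lin-42 lie between 0.778% and 1.87% in all 3 lists, whereas lin-41 and hbl-1 have no summit of replicate 2 within 100 bp and lin-14 none of replicate 1. The hbl-1 and lin-14 regions do overlap a region of that replicate, at ranks 2836 and 1192, and the lin-41 region overlaps none.

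Peaks come from a step that weighs rank agreement, so a high share matched in both replicates is partly built in. It does not make every peak match in both. Each of the 3 peaks ranked within the first 521 in replicate 1 and in replicate 2, which held for 295 of all 521 peaks (56.6%). Of the 41 pooled regions, 32 had a summit of replicate 1 within 100 bp, 20 one of replicate 2 and 11 one of both (26.8%). Over all pooled regions the share matched in both was 30.5%, and over all peaks it was 94.6%. The rule on summits is strict for pairs of regions such as those of lin-14: by overlap of at least 1 bp, 26 of the 41 (63.4%) were found in both replicates, against 53.9% of all pooled regions. The median signal of the 41 regions was 37.0 against 34.6 over all pooled regions, and 6 of the 41 (14.6%) stood in the strongest 10% of the list.

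Regions were denser at these genes than over the genome. The 8 windows held 0.374 pooled regions per kb over 109543 bp, against 0.163 over the whole genome and 0.165 over the windows of protein-coding genes. The density was highest at hbl-1 with 0.697 per kb, followed by lin-66 with 0.521 and lin-42 with 0.463, and lowest at lin-14 with 0.214, which was still above the genome value. Among the 21 other heterochronic genes described below, the density ran from 0 at mir-48 to 0.623 per kb at ain-1. A density above the genome value was thus not particular to the 8 genes, which were picked with their regions known. Most regions at the 8 genes are weak. Neighbouring regions that overlap, as at lin-14, lin-46, hbl-1, lin-42 and lin-66, are counted separately, and the density of other pathways was not compared.

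Of the 41 summits, 22 were in introns, 9 in coding exons, 2 in a 3′ UTR and 8 outside the gene, 7 of these upstream and 1, at lin-66, past its end. Introns held 53.7% of the 41, coding exons 22.0%, and 19.5% were outside. Over all pooled regions, 35.4% were in introns of protein-coding genes, 19.3% in coding exons and 39.3% outside such genes. The rule takes in the whole gene body, which made up 74.3% of the 8 windows and held 33 of the 41 summits (80.5%). Over the windows of all protein-coding genes the body made up 43.8% of the length and held 41.9% of the summits, so the count inside is read against how much of the windows is gene body. Several of the genes have further starts inside them, and 12 of the 41 summits lay within 500 bp of some start of their gene and 17 within 1000 bp. The matching shares over all pooled regions are not given here. No gene for a tRNA, an snRNA, an snoRNA or an rRNA lay within 200 bp of the 41 summits.

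The T-box core word was not among the letters at any of these summits. GGTGTG, on either strand, was in 0 of the 41 windows, which by counting error allows a share of up to 7.32%, against 6.89% of all pooled regions and 9.60% of peaks. At this number of windows, 0 cannot be told from the share over all pooled regions. The limit counts each window as independent, though 11 are from lin-42 and some regions overlap. No difference from peaks is read from it. GAGAGA was in 9 of the 41 (22.0%), against 16.3% of all pooled regions and 32.2% of peaks. It was in the highest region of 5 of the 8 genes: lin-14, lin-28, lin-41, lin-42 and lin-66, all 3 genes with a peak among them. With 50 bp on either side of the summit it was in 3 of the 8. Over the 7547 regions that are the highest of some protein-coding gene, the share was 16.2%, and 9.10% in the shorter window. GGGCGG was in 6 of the 41 (14.6%, against 6.82% of all pooled regions and 14.6% of peaks), but 5 of these 6 were regions of lin-42, and without lin-42 it was in 1 of 30 (3.33%). TGATAA was in 7 (17.1%, against 13.4% of all pooled regions and 8.83% of peaks). With 50 bp on either side of the summit the order turned for TGATAA, with 1 of 41 (2.44%) against 6.77% of all pooled regions. The median G and C content of the 41 windows was 42.8%, against 39.3% for all pooled regions and 46.8% for peaks. A word found is a description of the letters and not a bound site.

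A list of 21 other heterochronic genes was read by the same rule, and 4 of them, puf-9, nhl-2, kin-20 and ain-1, had a peak. Of the 21, 20 had at least 1 pooled region, mir-48 being the exception. Among all protein-coding genes counted by the same rule, 4.18% had a peak and 59.3% a pooled region. The 21 are not all protein-coding, so the sets are not alike. Of them, lin-4, let-7, mir-48, mir-84 and mir-241 are microRNA genes and lep-5 is a noncoding RNA gene. The list was chosen with earlier results of these data known, so its counts carry no test. puf-9, a Pumilio-family RNA-binding protein that lowers hbl-1, had the strongest region of all 29 genes, with a pooled signal of 114.6 at rank 192 and ranks of 289 and 135 in replicates 1 and 2. Its summit lay 254 bp upstream of the gene and inside the noncoding RNA genes W06B11.7 and W06B11.9. puf-9 starts 13.8 kb downstream of the end of hbl-1. Its window (chrX:5841238-5841438) is shown because it is the one highest region among those with a peak that held the T-box core word, here with a TGATAA word on the minus strand.
puf-9, peak: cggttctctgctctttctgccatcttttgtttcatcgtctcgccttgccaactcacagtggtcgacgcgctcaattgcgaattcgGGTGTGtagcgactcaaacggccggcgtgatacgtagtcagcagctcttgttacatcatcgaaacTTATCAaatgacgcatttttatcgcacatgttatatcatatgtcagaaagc

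The other genes of the wider list with a peak were nhl-2, kin-20 and ain-1. nhl-2, a TRIM-NHL cofactor of the microRNA complex, had a pooled signal of 94.6 at rank 305, with ranks of 721 and 177 in replicates 1 and 2. The summit lay outside nhl-2, 868 bp upstream of the nhl-2 start, and was closer to a start of tag-340, 555 bp away. kin-20, the casein kinase related to fly doubletime and a partner of lin-42, had a signal of 84.6 at rank 400 in an intron, with ranks of 272 and 809. ain-1, the worm GW182 protein of the microRNA complex, had a signal of 83.6 at rank 410 and rank 322 in replicate 1. In replicate 2 the overlapping region of ain-1, at rank 302, had its summit 119 bp away. The Argonaute genes alg-1 and alg-2, of the same microRNA machinery, had no peak, with highest signals of 39.5 at rank 5028 and 48.4 at rank 2228, and are named here after their values were seen.

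The next 5 genes of that list by signal had no peak. dre-1, an F-box protein that acts in the turnover of BLMP-1, came first with a signal of 68.1 at rank 705 and a q-value of 0.0192, and ranks of 954 and 838 in the replicates. nhr-23, a nuclear receptor of the molting cycle, had 54.2, with rank 630 in replicate 1 and rank 17473 in replicate 2. The microRNA gene lin-4 had 53.2, with rank 426 in replicate 1 and no region of replicate 2 that overlapped. That summit was 343 bp upstream of lin-4 and inside the protein-coding gene F59G1.4. The nuclear receptor gene daf-12 had 52.4, with rank 577 in replicate 1 and no summit of replicate 2 within 100 bp. The region of replicate 2 that overlapped it, at rank 19446, had its summit 358 bp away. lep-2, a Makorin-type protein, had 52.3, with ranks of 7435 and 2299. This summit was 935 bp upstream of lep-2 and 896 bp from a start of egrh-2. nhr-23, lin-4 and daf-12 thus stood high in replicate 1 and low or unmatched in replicate 2, as lin-41 did. Other genes of the list went the opposite way. The highest region of alg-2 had ranks of 10363 and 1248 in replicates 1 and 2, and that of mir-241 ranks of 14048 and 2768.

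**Figure D4:**
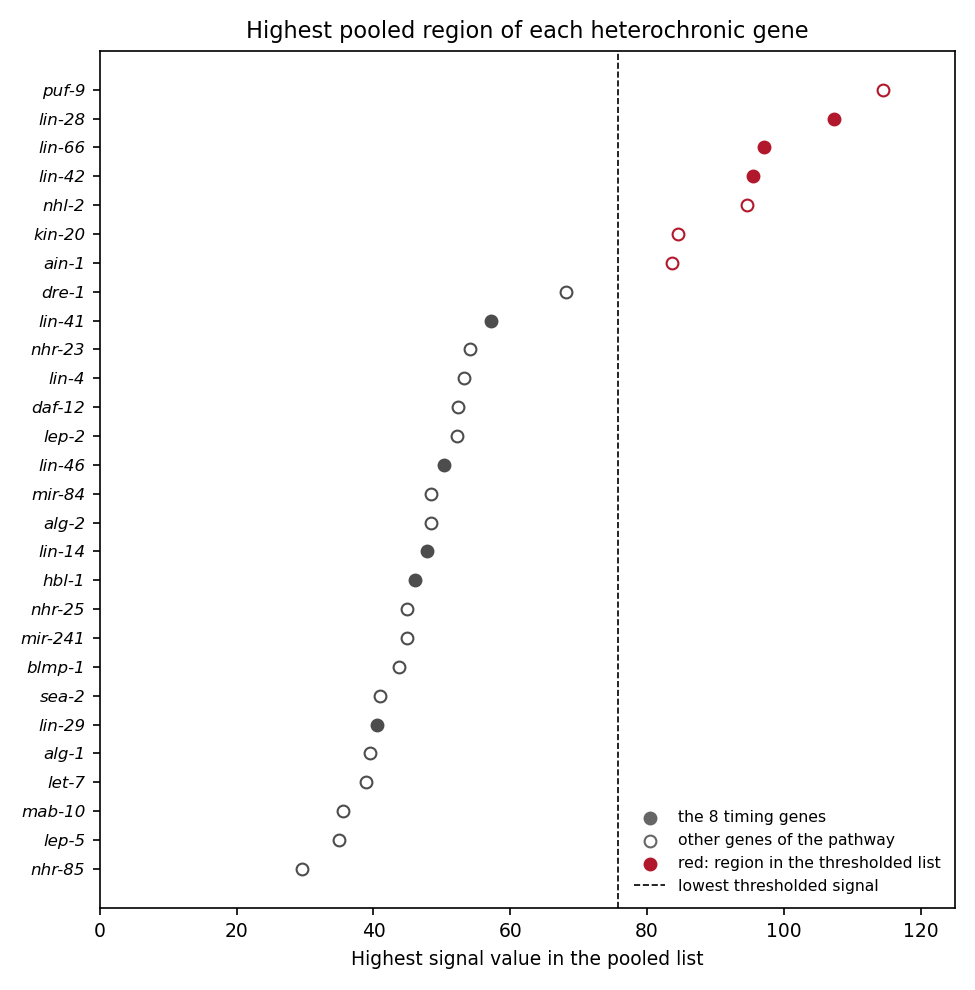
Highest signal value in the pooled list of the 8 timing genes (filled) and of the 20 other heterochronic genes with a pooled region (open). Red marks the 7 genes with a peak, which lie between 83.6 and 114.6, to the right of the lowest peak signal (dashed line, 75.8).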

How the data were processed

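ChIP-seq regions of 2 biological replicates were used as deposited. Per the deposited file descriptions, the authors called peaks and background regions on each replicate and on the pooled reads of both, each with 1 control, and derived the thresholded list by the irreproducible discovery rate step. Coordinates are on ce11. Neither an aligner nor a caller is named (not given in the sources used here). Signal values as deposited are the caller's own measure, undefined in those sources, and were compared only inside one list. Each deposited −log10 q-value was turned into q, with 0.05 as the limit. The deposited summit offset in bp gave the summit. The lists give no read numbers, so precision cannot be tied to depth, and whether p-values of regions reflect variation between cultures is unknown with 2 libraries.

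Gene models were Ensembl (WBcel235, the same assembly as ce11) and sequence was RefSeq WBcel235, read with Python 3.11.15, pandas 2.3.3 and numpy 2.4.6. Summits of lists were matched within 100 bp, and words were counted in the summit and 100 bp on either side. The scripts were tested on simulated regions. No test was run, since there is 1 group. The members, the list of 21 other heterochronic genes and the words were chosen with earlier results of these data known. Named genes are the 8 members, the other heterochronic genes with a peak, the 5 next by signal, and the genes nearest to lin-28 in log10 rank, where ties made 7. Alternatives covered the window, the match, the strength limit, the word window and each replicate by itself. Sequences of windows that overlap untranslated regions, and of all windows on chromosome I, such as those of lin-28 and lin-41, are not printed. The signal tracks, control reads and expression data were not used here.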

Additional observations from a re-analysis of the deposited data

How the results depend on the processing

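The count of 3 genes with a peak (lin-28, lin-42 and lin-66) was the same with windows of 1 kb or 5 kb around starts, with the gene body left out, and with pooled regions at q below 0.05. It was 1 (lin-28) in the upper 260 peaks. From a single replicate's 521 highest regions it ran from 3 without replicate 1 to 4 without replicate 2, where lin-41 joined. Regions of the genes matched in both replicates numbered 11 within 100 bp, 6 within 50 bp and 26 by overlap. GGTGTG was at 0 summits also with 50 bp on either side, and TGATAA was at 1 in place of 7 there. The other heterochronic genes with a peak stayed 4 with 1 kb windows. The rank of a gene's highest region moved most for lin-41, from the top 7.36% of the list to 68.4% with 1 kb windows, for hbl-1, from 16.6% to 4.05% with 5 kb windows, and for lin-46, from 11.7% to 43.4% without replicate 1. The nearest region inside the 3 kb limit was at lin-66 (2561 bp) and the nearest outside at lin-42 (3336 bp). No paired analysis was possible because there is 1 group and no test. Without read numbers, a region missing from a replicate list was not detectable at an unknown depth, which is not absence of the protein.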

Other observations

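The word GACGCAGA, noticed in the printed windows and so chosen after the letters were seen, was in 2 of the 41 windows, at lin-66 and at the second region of lin-42. It was in 2.76% of all pooled regions and 6.33% of peaks, and it also occurs in the highest region of daf-12. Regions high in 1 replicate and absent in the other occurred both ways over the genome: of the pooled regions that were not peaks and were matched to the 521 highest of replicate 1, 14 of 103 (13.6%) overlapped no region of replicate 2, and in the opposite direction 14 of 108 (13.0%) overlapped no region of replicate 1.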
